A study of Mus musculus with 12 samples.

Results

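Proteasome genes were examined in the liver of progeroid and wild-type mice on 2 diets. The group holds every gene whose single symbol on the array begins with Psma, Psmb, Psmc, Psmd, Psme, Psmf or Psmg followed by a digit, and it came to 50 of 19938 measured genes. Where a gene had more than 1 probe set, the probe set with the highest mean signal over the 12 arrays stood for it, which applied to 5 of the 50. By role, 14 encode the standard 20S core (7 alpha and 7 beta subunits), 3 the immunoproteasome subunits Psmb8, Psmb9 and Psmb10, and 17 the 19S cap (6 ATPases and 11 other subunits). A further 7 encode assembly chaperones, 4 activators, 1 the inhibitor Psmf1, and 2 core subunits known from testis (Psma8) and thymus (Psmb11). The last 2, Psmc3ip and Psme3ip1, share the prefix but are not subunits, and they were kept in the counts because the rule is on names. A probe set that names Psme2 together with Psme2b was left out, and Psme2 has a probe set of its own.

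The mice were males of the C57BL/6N strain, killed at 110 days of age after 6 hours without food. Knock-in mice (KI) carried the Lmna G609G allele on both chromosomes, the mouse counterpart of the human progeria mutation, in all cells, and the wild-type mice (WT) came from the same crosses of heterozygotes. Each genotype was fed a control diet (CD) or a methionine-restricted diet (MR) from 7 weeks of age, giving the groups WT_CD, WT_MR, KI_CD and KI_MR with 3 arrays each. Nothing in the labels ties an array to its own animal, so the tests measure the spread between these arrays. An Lmna signal on this array does not report the point mutation, so it gives no check of the genotype labels.

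The proteasome degrades proteins tagged with ubiquitin. Its 20S core is a barrel of stacked rings in which the beta subunits Psmb5, Psmb6 and Psmb7 carry the cutting sites, and the 19S cap recognises the tagged protein, unfolds it and feeds it into the barrel. Interferon induces Psmb8, Psmb9 and Psmb10, which take the places of Psmb5, Psmb6 and Psmb7 and change the peptides made for display on MHC class I. In liver, hepatocytes hold mainly the standard form, and immune cells hold more of the immunoproteasome. When proteasome activity falls short, the transcription factor Nfe2l1 raises the transcription of subunit genes together.

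Values are log2 of the deposited linear intensities, with no further scaling, and a difference is a difference of group means on that scale. Array medians were alike (82 to 90 in intensity). A difference was called when its p-value from limma's moderated test, adjusted by the Benjamini-Hochberg method over all 19938 genes, was under 0.05. Mean signal over the 12 arrays lay above the lower quartile of gene signals (5.57) for 49 of the 50 genes, the exception being Psma8 at 5.47, and no gene was removed for low signal. Hepatocyte markers were bright on every array, with a summed intensity from 51966 to 59551 over the 5 of 6 listed genes that were measured. Replicate 3 of WT_MR stood apart for these genes: its proteasome genes had a median 0.21 above the mean of the other 2 WT_MR arrays, and on the same scale all genes had a median of -0.05 and the 10 macrophage markers a median of 0.79. Replicate 1 of KI_CD had the lowest mean correlation with its own group (0.986, against 0.989 to 0.994 on the other arrays) and a proteasome median 0.10 above its group's other arrays. On the same scale its 3 cholangiocyte markers had a median of 0.90 and its 4 stellate cell markers a median of 0.71. The cholangiocyte median was 0.65 on replicate 3 of KI_MR, and -0.38 and -0.33 on replicates 1 and 2. The part of these cells in the proteasome values was not tested.

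The upstream sequences of 2 genes are shown first because the results turn on them: Psmb5, the only gene of the 50 called in any comparison, and Psmb9, the immunoproteasome gene with the largest difference on the restricted diet in wild-type mice. RefSeq promoter windows on build GRCm38.p6 (250 bases before to 50 after the start) matched 42 of the 50 genes. Both run 5′ to 3′ on the minus strand and stop before the gene's own start. In Psmb5 (chr14:54617996-54618245), capitals mark a match to the core of the antioxidant response element, TGACNNNGC, whose first base lies 47 bases before the start. The Psmb9 stretch (chr17:34187331-34187555) is the 225 bases between the divergent starts of Psmb9 and Tap1, and it holds no match to the antioxidant response core or to the interferon-gamma activated core described next.
Psmb5: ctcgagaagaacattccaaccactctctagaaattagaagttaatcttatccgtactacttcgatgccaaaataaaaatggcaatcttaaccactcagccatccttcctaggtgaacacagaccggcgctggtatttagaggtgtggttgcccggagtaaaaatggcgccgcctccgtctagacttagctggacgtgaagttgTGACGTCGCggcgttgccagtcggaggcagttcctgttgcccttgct
Psmb9: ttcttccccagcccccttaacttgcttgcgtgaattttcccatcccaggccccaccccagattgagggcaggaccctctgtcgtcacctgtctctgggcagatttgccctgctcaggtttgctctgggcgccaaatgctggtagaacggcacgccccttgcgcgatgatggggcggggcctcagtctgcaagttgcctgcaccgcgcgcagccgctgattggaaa

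Both strands of each window were searched for the 2 short motifs given here. A longer motif of interferon-stimulated genes was also searched and was more frequent among proteasome genes than among all genes; its letters and values are not reported here. The antioxidant response core TGACNNNGC, to which Nfe2l1 and Nfe2l2 bind, was found for 6 of 42 proteasome genes (14.29%) and for 13.99% of all 27025 genes with a window. Besides Psmb5, the windows of Psmb6, Psmc6, Psmd9, Psmd12 and Psme4 held it. The interferon-gamma activated core TTCNNNGAA was found for 3 of the 42 (7.14%, against 9.55% of all genes), and in Psmb8 it lies 97 bases before the start. A match is a stretch of letters and not a shown binding site, and none of these shares was tested.

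Across the 4 comparisons of groups and their interaction, 1 gene of the 50 passed the threshold in 1 comparison. Psmb5, the chymotrypsin-like subunit and the usual target of proteasome inhibitors, was lower in KI_MR than in WT_MR. No proteasome gene was called between the genotypes on the control diet, for the diet in either genotype, or for the interaction. The share of all genes called was 0.0802% for KI_CD against WT_CD, 0.176% for KI_MR against KI_CD, 0.326% for WT_MR against WT_CD, 0.471% for KI_MR against WT_MR and 0% for the interaction, so 0 calls among 50 genes is near the background in the first 3 and in the last. The single call in KI_MR against WT_MR is 2% of the 50, and 0.211% of all genes were called lower there.

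Unadjusted limma p-values under 0.05 among the 50 were set against their share over all genes. They numbered 3 (6%, against 11.2% of all genes) for KI_CD against WT_CD and 4 (8%, against 7.78%) for KI_MR against KI_CD. They numbered 8 (16%, against 8.19%) for WT_MR against WT_CD, 6 (12%, against 14.1%) for KI_MR against WT_MR and 5 (10%, against 4.13%) for the interaction. The share was below that of all genes in both genotype comparisons, near it for the diet in KI mice, and above it for the diet in wild-type mice and for the interaction, 2 comparisons that share the WT arrays. The plot of all differences shows these intervals gene by gene.

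**Figure D1:**
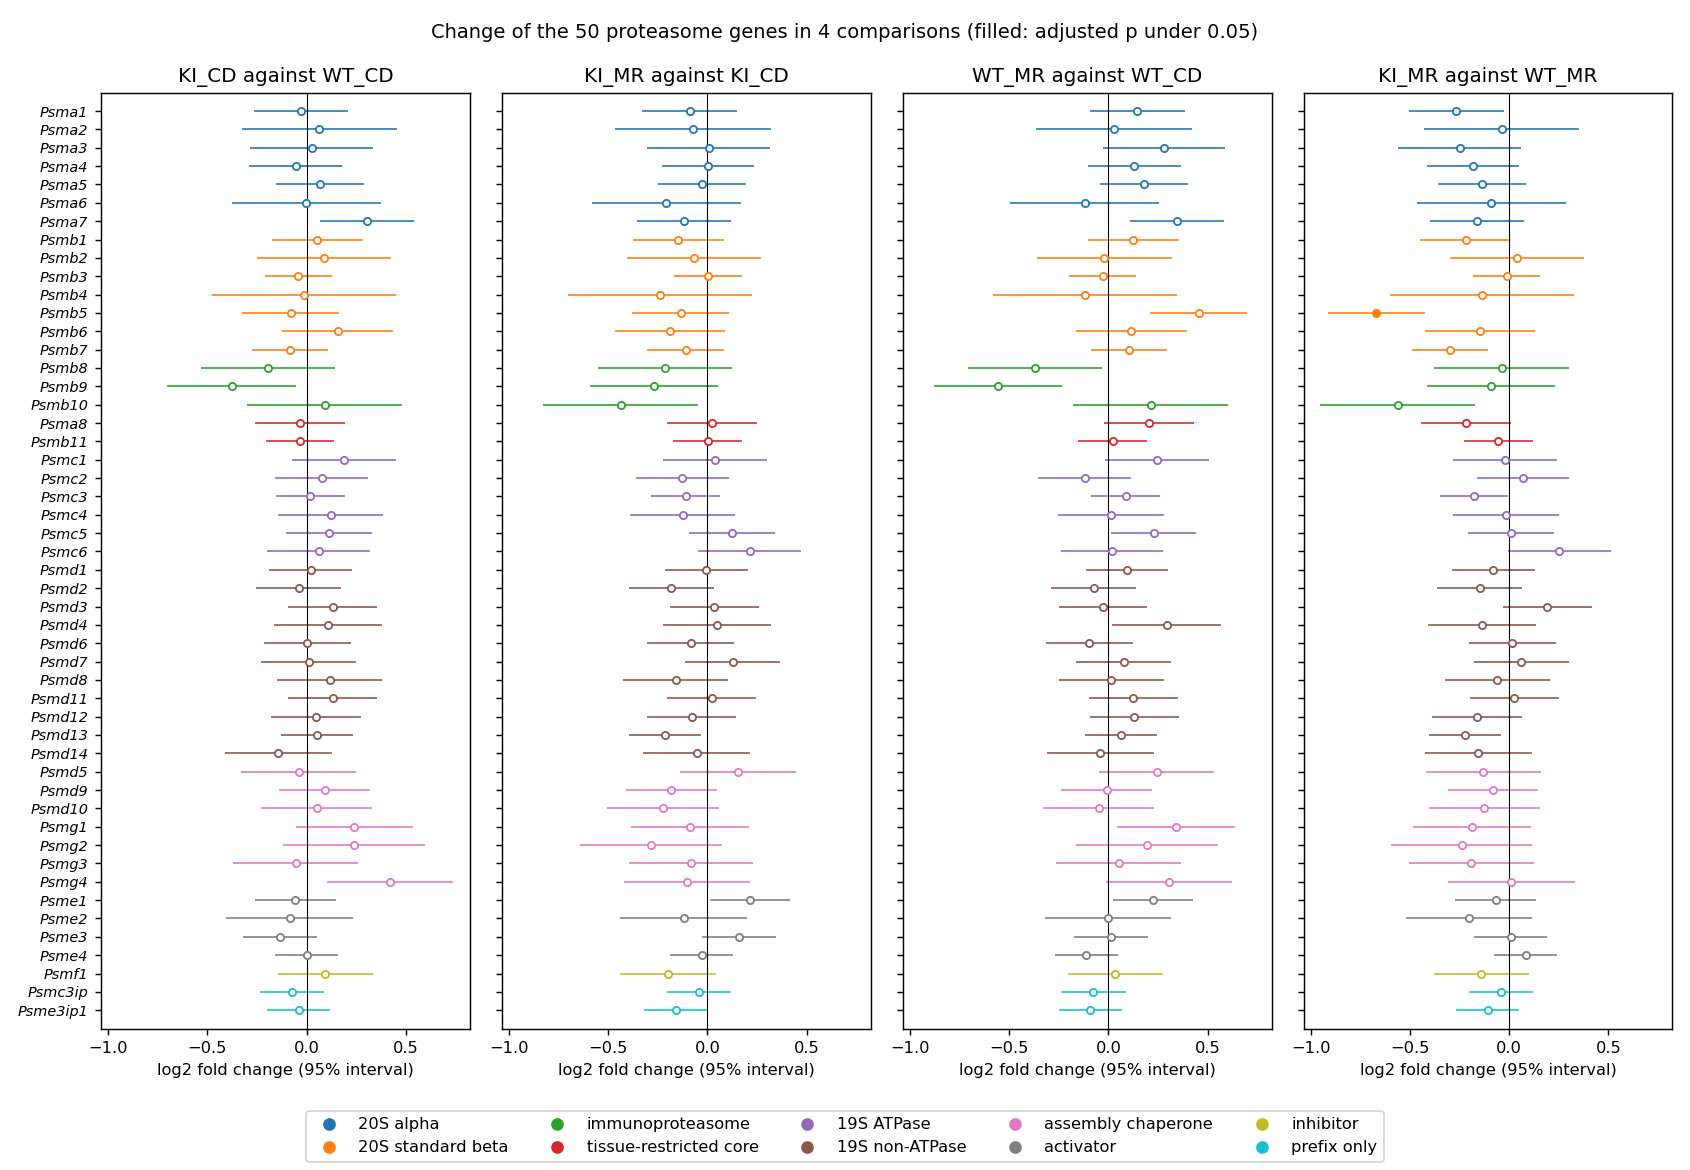
Difference in log2 intensity (horizontal axis) of each of the 50 proteasome genes in the 4 comparisons of groups, ordered by role, with 95% intervals from limma as bars; a filled point has an adjusted p under 0.05. The 1 filled point is Psmb5 in KI_MR against WT_MR, at -0.67.

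Among the 3 standard catalytic subunits, Psmb5 showed the largest spread of group means (0.67), which was also the largest of the 50 genes. Its log2 intensity was 11.95, 11.91 and 11.79 on the WT_CD arrays and 12.26, 12.37 and 12.37 on the WT_MR arrays. It was 11.75, 11.95 and 11.70 in KI_CD and 11.87, 11.72 and 11.41 in KI_MR. The 3 WT_MR arrays were the highest of the 12, and the other 9 arrays overlapped between their groups. In KI_MR it was 1.59-fold lower than in WT_MR (log2 difference -0.67 ± 0.11 SE, 95% interval -0.91 to -0.42, limma adjusted p = 0.0339). WT_MR lay 0.45 ± 0.11 above WT_CD without overlap of arrays, which missed the threshold (limma adjusted p = 0.159). Between the genotypes on the control diet it differed by -0.08 (limma adjusted p = 0.782), and between KI_MR and KI_CD by -0.13 (limma adjusted p = 0.916). The interaction, the diet difference in KI minus that in WT, was -0.59 ± 0.16, with an unadjusted limma p of 0.00322 and an adjusted p of 1. The call was lost in 7 of 12 fits that each left out 1 array, with limma adjusted p from 0.0278 to 0.132 and a difference from -0.77 to -0.54. These were the fits without KI_MR replicate 2 or 3 (limma adjusted p = 0.0581 and 0.111), WT_CD replicate 1 or 2 (0.0538 and 0.061), or any WT_MR array (0.0981, 0.132 and 0.0559 for replicates 1, 2 and 3). It was also lost in the fit of the 6 compared arrays alone (limma adjusted p = 0.135).

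Psmb6, which carries the caspase-like site, gave 10.06, 9.60 and 9.85 in WT_CD, 10.04, 9.81 and 10.00 in WT_MR, 10.21, 9.86 and 9.91 in KI_CD, and 9.92, 9.75 and 9.75 in KI_MR. Its groups overlapped in every comparison, and its differences ran from -0.19 to 0.16. Psmb7, which carries the trypsin-like site, gave 10.44, 10.47 and 10.33 in WT_CD, 10.35, 10.51 and 10.69 in WT_MR, 10.29, 10.43 and 10.27 in KI_CD, and 10.20, 10.25 and 10.21 in KI_MR. The 3 KI_MR arrays were the lowest of the 12. Against WT_MR the Psmb7 difference was -0.30 ± 0.09, without overlap of arrays (limma adjusted p = 0.158), and it was -0.15 with array weights and -0.18 with gene-by-gene array weights. All 3 standard catalytic genes thus had a negative difference in KI_MR against WT_MR, and the limma test passed for Psmb5 alone.

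**Figure D2:**
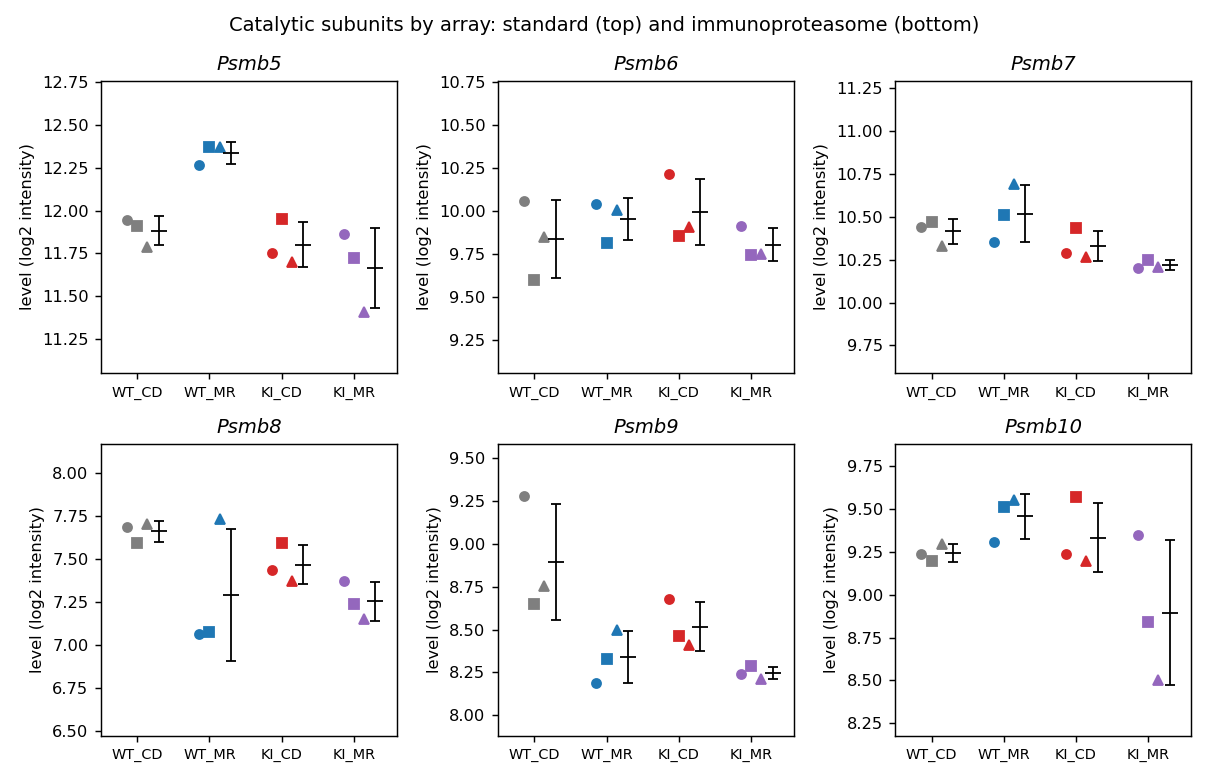
Log2 intensity (vertical axis, panels of equal span) of the standard catalytic genes Psmb5, Psmb6 and Psmb7 and of the immunoproteasome genes Psmb8, Psmb9 and Psmb10 in each group; circles, squares and triangles are replicates 1, 2 and 3, and the black dash and bar are the mean and SD of 3 arrays. Psmb5 is highest on the 3 WT_MR arrays, and the 4 highest Psmb9 arrays are the 3 of WT_CD and 1 of KI_CD at 8.68.

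The immunoproteasome genes showed different patterns among themselves. Psmb8, the counterpart of Psmb5, gave 7.69, 7.59 and 7.71 in WT_CD, 7.07, 7.08 and 7.73 in WT_MR, 7.43, 7.59 and 7.38 in KI_CD, and 7.38, 7.24 and 7.15 in KI_MR. WT_MR was split: 2 arrays were the lowest of the 12 and replicate 3 was the highest. The diet difference in wild-type mice was -0.37 ± 0.15 (limma adjusted p = 0.529). Without replicate 3 of WT_MR it was -0.59 and passed (limma adjusted p = 0.0348). That array was the highest of its group for 35 of the 50 proteasome genes, beside 5765 of all 19938 genes. It was also the highest for 10 of 10 macrophage markers, among them Adgre1 at 9.70 against 8.64 and 8.35. The part of macrophages in its Psmb8 value was not tested.

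Psmb9, the counterpart of Psmb6, gave 9.28, 8.65 and 8.75 in WT_CD, 8.19, 8.33 and 8.50 in WT_MR, 8.68, 8.46 and 8.41 in KI_CD, and 8.24, 8.29 and 8.21 in KI_MR. Both restricted-diet groups lay below the control-diet group of the same genotype with no overlap. The diet difference was -0.55 ± 0.15 in wild-type mice (limma adjusted p = 0.202) and -0.27 in KI mice, and the genotype difference on the control diet was -0.38 ± 0.15 (limma adjusted p = 0.388). Replicate 1 of WT_CD was the highest array, and without it the wild-type diet difference was -0.36 and the genotype difference -0.19.

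Psmb10, the counterpart of Psmb7, had another order. It gave 9.23, 9.19 and 9.30 in WT_CD, 9.31, 9.51 and 9.55 in WT_MR, 9.23, 9.57 and 9.20 in KI_CD, and 9.34, 8.84 and 8.50 in KI_MR. WT_MR lay above WT_CD with no overlap (0.21), whereas 2 of the 3 KI_MR arrays were the lowest of the 12. The difference was -0.44 ± 0.18 for KI_MR against KI_CD (limma adjusted p = 0.562) and -0.56 ± 0.18 for KI_MR against WT_MR (limma adjusted p = 0.187). The interaction was -0.65 ± 0.25, with an unadjusted limma p of 0.0248 and an adjusted p of 1. Without replicate 3 of KI_MR these were -0.24 against KI_CD and -0.36 against WT_MR, and without replicate 1 of KI_MR the former was -0.66. In the unweighted fit over the 12 arrays, none of the 3 immunoproteasome genes passed the threshold in any comparison. For WT_MR against WT_CD, Psmb8 and Psmb9 passed with array weights (limma adjusted p = 0.0027 and 0.00323), whose estimation did not converge. With gene-by-gene array weights, chosen after seeing the data, both passed as well (limma adjusted p = 0.0242 for each).

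The genes that make and load MHC class I peptides beside the immunoproteasome were read from a fixed list, of which 9 of 12 were measured. None was called by limma in any comparison, at the background shares given above. In each diet comparison 2 of 9 (22.2%) had an unadjusted p under 0.05, against 7.78% of all genes in KI and 8.19% in wild-type mice. The number was 0 in KI_CD against WT_CD (against 11.2%), KI_MR against WT_MR (against 14.1%) and the interaction (against 4.13%). Tap1, a subunit of the peptide transporter that shares its upstream region with Psmb9, gave 8.28, 8.09 and 8.20 in WT_CD, 7.42, 7.73 and 7.86 in WT_MR, 8.24, 7.92 and 7.95 in KI_CD, and 7.73, 7.70 and 7.69 in KI_MR. As with Psmb9, the restricted-diet arrays lay below the control-diet arrays of the same genotype without overlap. The Tap1 difference was -0.52 ± 0.12 in wild-type mice (limma adjusted p = 0.114) and -0.33 in KI mice (limma adjusted p = 0.451). In KI mice Calr, a chaperone that helps load class I molecules, had the smallest p of the list, with a diet difference of -0.30 (limma adjusted p = 0.288). For Tap2, the other subunit of the transporter, it was -0.26 in wild-type mice (limma adjusted p = 0.122). The list's median diet difference in wild-type mice was -0.17, with 8 of 9 genes below 0, beside a median of -0.00 over all genes.

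Markers of immune cells are given beside these values because bulk liver RNA cannot separate fewer cells of a type from less RNA per cell. Of 10 lymphocyte markers 9 were measured, and Klrb1c, Cd79a and Ms4a1 lay below the lower quartile of gene signals. Their summed intensity was 705 to 832 in WT_CD, 721 to 821 in WT_MR, 667 to 797 in KI_CD and 645 to 713 in KI_MR. The median lymphocyte difference was -0.10 for KI_CD against WT_CD, -0.07 for KI_MR against KI_CD, -0.02 for WT_MR against WT_CD and -0.12 for KI_MR against WT_MR. The T cell marker Cd4 differed by -0.34 in WT_MR against WT_CD (limma adjusted p = 0.162). There 6 of the 9 lymphocyte markers were below 0 and 3 above, with the B cell marker Cd79a at 0.245. In KI_CD against WT_CD the T cell markers Cd4, Cd8a and Cd3e differed by -0.23, -0.31 and -0.24, none past the threshold. The T cell marker Cd3g differed by -0.10 there, and 3 of the 9 lymphocyte markers were above 0. The 10 macrophage markers summed to 8979 to 10907 in WT_CD, 6897 to 12469 in WT_MR, 6766 to 8567 in KI_CD and 7421 to 8471 in KI_MR. Their median difference was -0.35 for KI_CD against WT_CD with 10 of 10 below 0, -0.16 for WT_MR against WT_CD with 9 of 10 below 0, and -0.21 for KI_MR against WT_MR with 10 of 10 below 0. For KI_MR against KI_CD it was -0.06, with 6 macrophage markers below 0 and 4 above. The part of these cells in the immunoproteasome values was not tested.

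The classes were compared by their medians, which carry no test because the genes of a class are measured on the same arrays. In KI_CD against WT_CD the median was 0.01 for the 20S core (7 of 14 above 0), 0.06 for the 19S cap (15 of 17 above 0) and -0.19 for the immunoproteasome (1 of 3 above 0), beside -0.02 for all genes. In WT_MR against WT_CD it was 0.12 (10 of 14), 0.06 (12 of 17) and -0.37 (1 of 3), beside -0.00. The wild-type diet comparison was thus where core and immunoproteasome medians lay farthest apart. With 3 genes, each immunoproteasome median is the value of a single gene. In the wild-type diet comparison that gene was Psmb8, with Psmb9 at -0.55 and Psmb10 at 0.21. In KI_MR against KI_CD it was -0.10 (3 of 14), -0.05 (7 of 17) and -0.27 (0 of 3), beside -0.02. The share of all genes above 0 was 43.04% for KI_CD against WT_CD, 47.4% for WT_MR against WT_CD and 42.92% for KI_MR against KI_CD. In KI_MR against WT_MR the class medians were -0.15 (1 of 14), -0.02 (7 of 17) and -0.09 (0 of 3), beside -0.04, with 37.31% of all genes above 0. Between the genotypes, the 20S median was thus near 0 on the control diet and below 0 on the restricted diet, where 13 of 14 core genes had a negative difference. For the interaction the medians were -0.21, -0.11 and 0.16, beside -0.01.

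Replicate 3 of WT_MR was high in each of 5 classes. Relative to the mean of the other 2 WT_MR arrays, its class medians were 0.13 higher for the 20S core, 0.22 for the 19S cap, 0.24 for the immunoproteasome, 0.20 for the activators and 0.29 for the chaperones. Without it the WT_MR against WT_CD medians were 0.04 for the 20S core, -0.03 for the 19S cap and -0.59 for the immunoproteasome, and in KI_MR against WT_MR they were -0.08, 0.03 and -0.01. The 20S median of KI_CD against WT_CD was -0.05 without replicate 1 of KI_CD, and that of KI_MR against KI_CD was -0.05. Over all fits that left out 1 array, the 20S and immunoproteasome medians kept their signs in both diet comparisons, and the 19S median changed sign in each.

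**Figure D3:**
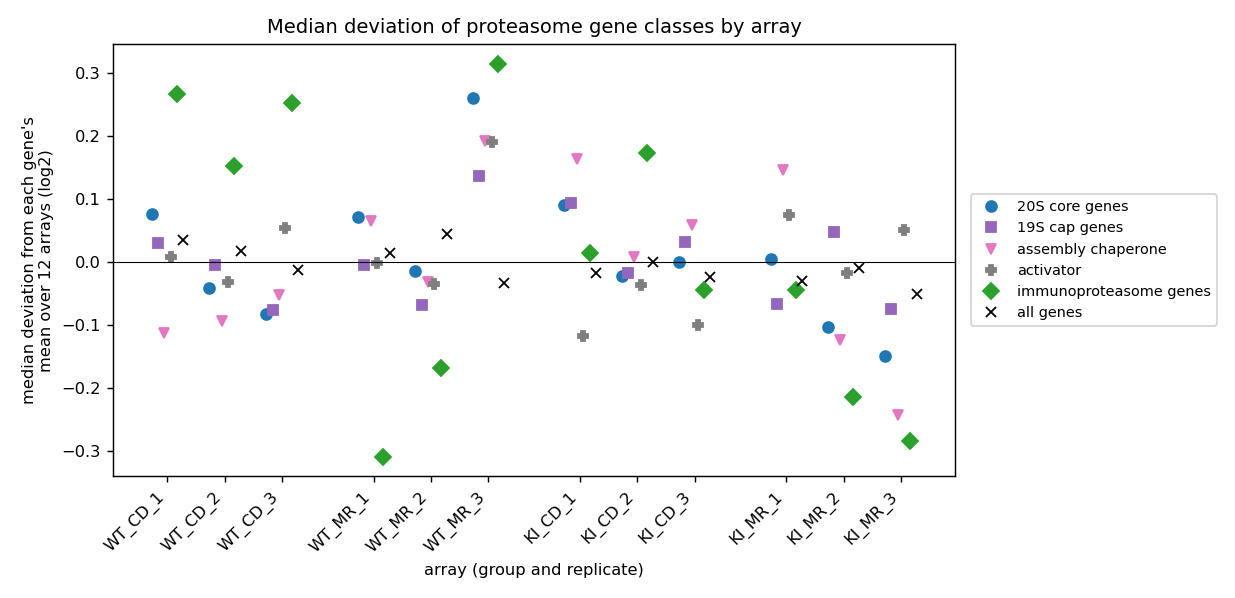
Median deviation in log2 intensity of each class on each of the 12 arrays (vertical axis), measured from each gene's mean over the arrays, with all genes for scale. Replicate 3 of WT_MR stands above the other WT_MR arrays in the 20S core, the 19S cap and the immunoproteasome.

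Among the 7 alpha subunits, which form the outer rings and the gate of the core, Psma7 had the largest differences. It gave 8.93, 9.03 and 8.99 in WT_CD, 9.16, 9.21 and 9.63 in WT_MR, 9.26, 9.32 and 9.29 in KI_CD, and 9.18, 9.09 and 9.24 in KI_MR. The 3 WT_CD arrays were the lowest of the 12. The difference was 0.31 ± 0.11 for KI_CD against WT_CD (limma adjusted p = 0.341) and 0.35 ± 0.11 for WT_MR against WT_CD (limma adjusted p = 0.296), and the latter was 0.20 without replicate 3 of WT_MR. The interaction was -0.47, with an adjusted p of 1 in limma. The 3 probe sets of Psma3 gave 0.28, 0.24 and 0.29 for WT_MR against WT_CD, so the probe sets of this gene read alike. At the other end, Psmb3, a structural beta subunit, had the smallest spread of group means of the 50 genes (0.043).

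The 19S ATPases Psmc1 to Psmc6 form the ring that unfolds substrates. Psmc6 gave 9.34, 9.52 and 9.44 in WT_CD, 9.46, 9.29 and 9.61 in WT_MR, 9.30, 9.56 and 9.61 in KI_CD, and 9.60, 9.60 and 9.91 in KI_MR. It was the cap gene with the highest difference in KI_MR against WT_MR (0.25, limma adjusted p = 0.360) and in KI_MR against KI_CD (0.21), and without replicate 3 of KI_MR these were 0.15 and 0.11. Psmc5 differed by 0.23 in WT_MR against WT_CD and Psmc3 by -0.18 in KI_MR against WT_MR, neither past the threshold. The 2 probe sets of Psmc1 disagreed, with 0.24 and 0.10 for WT_MR against WT_CD and -0.02 and 0.14 for KI_MR against WT_MR.

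Of the other cap subunits, Psmd13, a subunit of the lid, gave 9.18, 9.28 and 9.33 in WT_CD, 9.21, 9.26 and 9.52 in WT_MR, 9.35, 9.29 and 9.32 in KI_CD, and 9.10, 9.07 and 9.14 in KI_MR. The 3 KI_MR arrays were the lowest of the 12. The difference was -0.21 ± 0.08 against KI_CD (limma adjusted p = 0.520) and -0.22 against WT_MR (limma adjusted p = 0.249). Psmd3, another lid subunit, gave 9.43, 9.45 and 9.17 in WT_CD, 9.41, 9.18 and 9.38 in WT_MR, 9.61, 9.38 and 9.45 in KI_CD, and 9.57, 9.58 and 9.40 in KI_MR, with a difference of 0.19 in KI_MR against WT_MR (0.12 without replicate 2 of WT_MR). Psmd4, a receptor for ubiquitin chains, differed by 0.29 in WT_MR against WT_CD without overlap of arrays. Psmd14, the enzyme that cuts ubiquitin off the substrate, differed by -0.14 in KI_CD against WT_CD, 1 of the 2 cap genes below 0 there.

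Psmg1 to Psmg4 encode chaperones of core assembly. Psmg4 gave 7.64, 7.52 and 7.47 in WT_CD, 7.87, 7.71 and 7.97 in WT_MR, 8.37, 7.84 and 7.69 in KI_CD, and 7.91, 7.81 and 7.86 in KI_MR. The 3 WT_CD arrays were the lowest of the 12. The difference in KI_CD against WT_CD was 0.42 ± 0.15 (95% interval 0.10 to 0.74, limma adjusted p = 0.334), and it was 0.22 without replicate 1 of KI_CD. Psmg2, which works as a pair with Psmg1, gave 8.16, 8.19 and 8.28 in WT_CD, 8.21, 8.30 and 8.70 in WT_MR, 8.71, 8.25 and 8.39 in KI_CD, and 8.47, 8.07 and 7.97 in KI_MR. Its difference in KI_MR against KI_CD was -0.28, with overlap of arrays, and it was -0.43 without replicate 1 of KI_MR and -0.15 without replicate 1 of KI_CD. Psmg1 lay 0.34 higher in WT_MR than in WT_CD without overlap (limma adjusted p = 0.495).

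**Figure D4:**
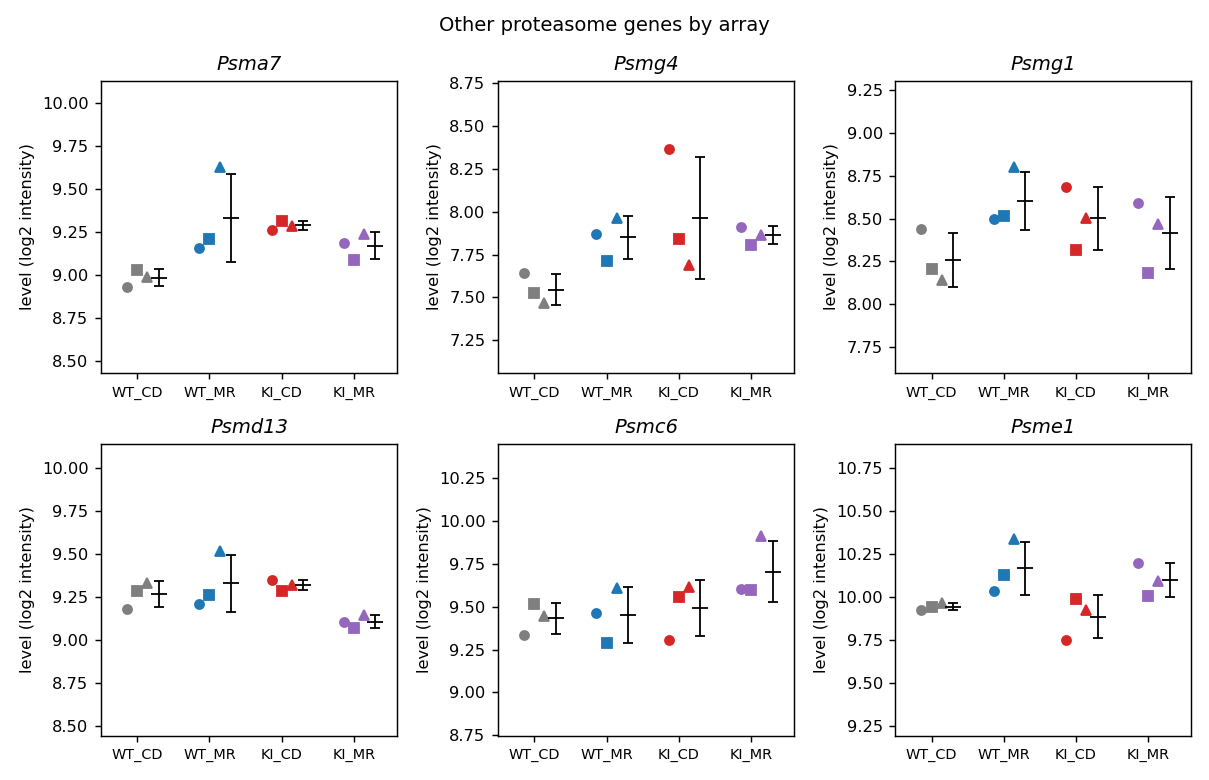
Log2 intensity (vertical axis, panels of equal span) of Psma7, Psmg4, Psmg1, Psmd13, Psmc6 and Psme1 in each group. Circles, squares and triangles are replicates 1, 2 and 3, and the black dash and bar are the mean and SD of 3 arrays. Psma7 and Psmg4 are lowest on the 3 WT_CD arrays.

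Of the activators that open the core without ATP, Psme1 and Psme2 form the interferon-inducible ring. Psme1 gave 9.92, 9.94 and 9.96 in WT_CD, 10.03, 10.13 and 10.34 in WT_MR, 9.75, 9.99 and 9.92 in KI_CD, and 10.20, 10.01 and 10.09 in KI_MR. Both restricted-diet groups lay above the control-diet group of the same genotype without overlap, the reverse of Psmb9. The difference was 0.23 in wild-type mice (limma adjusted p = 0.521) and 0.21 in KI mice (limma adjusted p = 0.614), and the former was 0.14 without replicate 3 of WT_MR. Its partner Psme2 gave 10.69, 10.50 and 10.52 in WT_CD, 10.64, 10.39 and 10.68 in WT_MR, 10.76, 10.30 and 10.40 in KI_CD, and 10.57, 10.44 and 10.09 in KI_MR, with overlap in every comparison and differences from -0.20 to -0.00.

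Psme3, the nuclear activator, gave 10.00, 9.90 and 10.07 in WT_CD, 9.86, 9.99 and 10.17 in WT_MR, 9.82, 9.93 and 9.82 in KI_CD, and 10.04, 9.95 and 10.05 in KI_MR. Its difference in KI_MR against KI_CD was 0.16 without overlap. Psme4, a large single-chain activator, gave 10.14, 10.19 and 10.24 in WT_CD, 10.14, 10.07 and 10.03 in WT_MR, 10.07, 10.19 and 10.30 in KI_CD, and 10.10, 10.19 and 10.19 in KI_MR. All its group differences lay between -0.11 and 0.08. The inhibitor Psmf1 gave 9.51, 9.40 and 9.59 in WT_CD, 9.47, 9.40 and 9.74 in WT_MR, 9.80, 9.48 and 9.51 in KI_CD, and 9.39, 9.48 and 9.32 in KI_MR, with -0.20 in KI_MR against KI_CD (-0.10 without replicate 1 of KI_CD). None of these 5 regulators was called by limma in any comparison.

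Arrays of the compared groups did not overlap for 2 of the 50 genes in KI_CD against WT_CD (4%, against 19% of all genes) and for 7 in KI_MR against KI_CD (14%, against 10.7%). They did not overlap for 10 in WT_MR against WT_CD (20%, against 11.5%) and for 6 in KI_MR against WT_MR (12%, against 16.3%). In the wild-type diet comparison 8 of the 10 were higher in WT_MR (Psma5, Psma7, Psmb5, Psmb10, Psmd4, Psme1, Psmg1 and Psmg4), and 6.35% of all genes were higher without overlap. In KI_MR against WT_MR all 6 were lower in KI_MR (Psma1, Psma4, Psmb5, Psmb7, Psmc3 and Psmd13), and 8.82% of all genes were lower without overlap.

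Other genes of the pathway were read from a fixed list of partners and regulators, 18 of which were measured. None was called by limma in any comparison; at an unadjusted p under 0.05 there were 0 for KI_CD against WT_CD (against 11.2% of all genes), 2 for KI_MR against KI_CD (11.1%, against 7.78%), 3 for WT_MR against WT_CD (16.7%, against 8.19%), 2 for KI_MR against WT_MR (11.1%, against 14.1%) and 0 for the interaction (against 4.13%). Nfe2l1, the activator of subunit genes named above, gave 9.94, 10.04 and 10.03 in WT_CD, 10.15, 10.32 and 10.15 in WT_MR, 10.13, 9.74 and 9.83 in KI_CD, and 9.92, 10.02 and 9.74 in KI_MR. As for Psmb5, the 3 WT_MR arrays were the highest of the 12, and a link between these genes was not tested. The Nfe2l1 difference was 0.20 in WT_MR against WT_CD (limma adjusted p = 0.716) and -0.31 in KI_MR against WT_MR (limma adjusted p = 0.222). Ubqln4, a shuttle that brings tagged proteins to the proteasome, gave 8.37, 8.34 and 8.37 in WT_CD, 8.88, 8.70 and 8.79 in WT_MR, 8.46, 8.31 and 8.29 in KI_CD, and 8.97, 8.55 and 8.67 in KI_MR. All 6 restricted-diet arrays were above all 6 control-diet arrays. The difference was 0.43 in wild-type mice (limma adjusted p = 0.129) and 0.38 in KI mice (limma adjusted p = 0.242). Zfand5, which binds the proteasome and raises its activity, lay 0.38 higher in KI_MR than in WT_MR (limma adjusted p = 0.199), and Uchl5, a deubiquitinase of the cap, lay 0.35 higher in WT_MR than in WT_CD.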

How the data were processed

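RNA of 12 liver samples was measured on single-colour Affymetrix arrays. The authors deposited linear intensities per probe set, rounded to whole numbers and with like medians on every array; how they were background-corrected, normalized and summarised was not given in the sources used here. Of 35512 probe sets, 21789 named 1 symbol in the platform annotation, 1621 several and 12102 none, which left 19938 genes after keeping the brightest probe set per gene. Intensities were turned to log2 with no pseudocount, filter or further scaling. Group means were fitted over all 12 arrays with limma 3.58.1 in R 4.3.3 (lmFit and eBayes, 8 residual and 3.14 prior degrees of freedom), and p-values were adjusted over all 19938 genes. The step was also run on simulated data. Its pass condition covered only differences far larger than those reported here, so it does not show how often differences of this size are found. The number of arrays limits the precision.

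The genes, classes and lists were chosen with earlier results of these data known. Values in every array are given for called genes, the catalytic and immunoproteasome subunits, activators, the inhibitor and, per comparison, the 2 highest and 2 lowest differences among genes above the lower quartile of signal; Psmd13, single cell type markers and the genes named only with a difference were picked after their values were seen. Partners and MHC class I genes were named from the 2 smallest p-values per comparison. Promoter windows are from RefSeq. Other settings tried were each array left out in turn, median centring, quantile normalization, genes without the dimmest 25%, the mean of probe sets, a trended robust prior, array weights, the compared arrays alone, and the replicate number as a block.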

Additional observations from a re-analysis of the deposited data

How the results depend on the processing

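The difference of Psmb5 between KI_MR and WT_MR kept its sign in every fit run, from -0.77 to -0.54, but not its call. The number of proteasome genes called there was 1, and it was 6 with array weights, 0 in the fit of the compared arrays alone and from 0 to 1 when 1 array was left out. Psmb5 missed the threshold in limma without KI_MR replicate 2 (adjusted p = 0.0581) or 3 (0.111), WT_CD replicate 1 (0.0538) or 2 (0.061), and WT_MR replicate 1 (0.0981), 2 (0.132) or 3 (0.0559). For WT_MR against WT_CD the number called was 0, and it was 7 with array weights, 2 with gene-by-gene array weights (Psmb8 and Psmb9; an alternative chosen after seeing the data) and from 0 to 1 when 1 array was left out. The array weights put a weight of 16.7 on WT_MR replicate 1 and their estimation stopped before it converged. The immunoproteasome median in KI_MR against WT_MR was 0.0467 with array weights, and the 20S median in KI_MR against KI_CD ranged from -0.14 to -0.0489 (without KI_CD replicate 1) when 1 array was left out. No result reversed a called sign, and the cause of these shifts was not tested.

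Whether the replicate numbers pair the arrays is not known. Deviations from the group means correlated from -0.055 to 0.244 between same-numbered arrays of the compared groups. In KI_MR against WT_MR these correlations were 0.094, 0.175 and 0.164 for replicates 1, 2 and 3. With the replicate block the proteasome genes called were 0, 0, 0, 1 and 0 in the 5 comparisons, as without it, and over all genes the number called in KI_MR against WT_MR was 177 with the block and 94 without. All-gene counts over the fits that left out 1 array ran from 2 to 32 for KI_CD against WT_CD, 7 to 94 for KI_MR against KI_CD, 17 to 199 for WT_MR against WT_CD, 3 to 226 for KI_MR against WT_MR and 0 to 3 for the interaction. Over the other alternatives they ran from 0 to 168, 0 to 130, 65 to 2204, 15 to 4612 and at 0. No detection call came with the intensities, so it is not known which of the dimmer genes, such as Psma8, were above background.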
